A study of Mus musculus with 9 samples.

Results

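The hair keratins and hair matrix regulators are genes that build the hair shaft and its inner root sheath, or that steer the matrix cells that form them. They were taken by symbol from a list of 38 genes, of which 37 had a row among the 52550 genes of the count table (Krt85 was not analysed here). They comprised 14 shaft keratins, 3 other shaft or matrix proteins, 8 inner root sheath keratins, the companion layer keratin Krt75, 3 genes of trichohyalin and its modifier, 7 transcription factors and the signal Shh. RNA from the dermis of mouse ears was sequenced in 9 libraries, 3 for each of 3 groups. All mice were C57BL/6 by the labels (C57BL/6J in the study's methods) without a genetic change, aged 8 weeks, and the methods call them male. VAS+H2O mice, the control, received vaseline on the ear for 5 days and water by gavage for 10 days, the gavage starting 5 days before the cream. IMQ+H2O mice, the psoriasis-like model, received imiquimod cream in place of vaseline. IMQ+XYF mice received imiquimod cream and, in place of water, 200 µl of a decoction of Chinese herbs, Xiao-Yin-Fang (XYF), at 23.3 mg/g. How often a day the gavage was given differs between the study's methods and its figure legends. By the methods, dermal sheets of more than 1 mouse gave the RNA, while the figure legends give n = 3 per group without saying what was counted. Whether a library pooled mice was not clear. No source says that the libraries of a group came from separate animals, so p-values measure the spread between these libraries, which may be technical.

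A hair follicle builds its shaft from matrix cells at its base, and only follicles in the growing phase do so. Differentiating matrix cells switch on hair keratins, which pair as type I with type II into filaments that keratin-associated proteins then cross-link. Around the shaft, the inner root sheath makes its own keratins and trichohyalin, which it hardens and later sheds. HOXC13, FOXN1, MSX2 and DLX3 are transcription factors known to act in the matrix and in the shaft above it.

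Fibroblast genes fitted the label of dermis, and other tissues were present too. Levels are given as CPM, the counts of a gene scaled to the library's total. In VAS+H2O the mean level was 6187 CPM for Dcn, 5297 for Col3a1 and 4969 for Col1a2, and none of the 10 fibroblast markers was at 0 counts in any library. The summed level of 15 interfollicular epidermis genes ran from 5660 to 11400 CPM in VAS+H2O, from 3640 to 5080 in IMQ+H2O and from 6760 to 26360 in IMQ+XYF. The last value was IMQ+XYF replicate 1, which stood apart. Summed cartilage genes ran from 2390 to 6550, from 829 to 1710 and from 1910 to 5280 CPM in the same order, with Matn1 at 0 throughout. Skeletal muscle genes summed to between 144 and 3050 CPM. In such bulk samples, fewer cells of a type and less RNA per cell cannot be told apart. Total counts ran from 28756305 to 79836881 per library, so a library with 0 counts of a gene was below a floor of 3 counts, or 0.0373 to 0.103 CPM. All CPM values are scaled by TMM factors, and intervals and floors cover counting error only.

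The keratin genes lie in 2 clusters of the GRCm38 genome. The type I inner sheath keratins Krt25 to Krt28 lie on chromosome 11 between 99315516 and 99374903. The type I shaft keratins from Krt33a to Krt36 follow between 100011195 and 100105626. The type II genes lie on chromosome 15 between 101459061 (Krt81) and 101802346 (Krt73). The 250 bases before the gene start were read from the RefSeq promoter table (GRCm38.p6), which held 30 promoters of 26 of the 38 genes. The sequences of 4 neighbouring type I shaft keratins are shown because they carry the same motifs at nearly the same place, and all 4 genes were called lower in both imiquimod groups. Capitals mark matches on either strand to the motif TATAAA, to the LEF1/TCF core CTTTGA and to the HOXC13 core TTTAT. The last of these reads ATAAA on the other strand, so every match to the first contains it.
Krt31, chr11:100050552-100050801, minus strand: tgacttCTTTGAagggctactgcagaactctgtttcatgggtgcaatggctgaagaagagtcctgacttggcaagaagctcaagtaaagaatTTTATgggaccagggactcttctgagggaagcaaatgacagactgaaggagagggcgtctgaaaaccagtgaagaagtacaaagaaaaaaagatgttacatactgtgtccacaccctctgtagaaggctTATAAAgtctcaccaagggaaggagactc
Krt32, chr11:100088270-100088519, minus strand: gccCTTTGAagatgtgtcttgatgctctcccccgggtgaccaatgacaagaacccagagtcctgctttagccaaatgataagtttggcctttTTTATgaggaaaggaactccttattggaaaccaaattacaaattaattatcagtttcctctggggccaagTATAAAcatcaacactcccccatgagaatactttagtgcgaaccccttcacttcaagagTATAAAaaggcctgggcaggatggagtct
Krt33b, chr11:100029869-100030118, minus strand: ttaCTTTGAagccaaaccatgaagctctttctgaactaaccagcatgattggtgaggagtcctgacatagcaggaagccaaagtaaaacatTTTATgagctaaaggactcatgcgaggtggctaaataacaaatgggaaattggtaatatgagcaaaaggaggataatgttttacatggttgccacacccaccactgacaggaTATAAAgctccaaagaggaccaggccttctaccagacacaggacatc
Krt34, chr11:100041555-100041804, minus strand: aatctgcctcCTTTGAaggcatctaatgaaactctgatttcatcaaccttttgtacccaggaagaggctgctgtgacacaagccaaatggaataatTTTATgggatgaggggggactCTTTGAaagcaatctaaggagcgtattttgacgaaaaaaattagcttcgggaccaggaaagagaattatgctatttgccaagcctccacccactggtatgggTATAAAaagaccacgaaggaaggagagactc

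In these 4 sequences CTTTGA began 244, 247, 247 and 240 bases before the start, in the order printed. TTTAT began 158, 158, 159 and 154 bases before the start on the same strand. TATAAA began 29 bases before the start in Krt31 and Krt32, 31 in Krt34 and 47 in Krt33b. Of 9 shaft keratin promoters in the table, 5 held CTTTGA against 13.8% of all 32851 promoters, and 8 held TTTAT against 37.3%. The longer run TTTTATG, picked after these sequences were seen, was in 8 of the 9 against 3.77% of all promoters. None of the 7 inner root sheath keratin promoters held TTTTATG. A match is a description of the letters and does not show that a factor binds.

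The inner sheath promoters are shown for contrast, since Krt25 and Krt71 were the highest members per kilobase in VAS+H2O, and Krt73 is a neighbour of Krt71.
Krt25, chr11:99322952-99323201, minus strand: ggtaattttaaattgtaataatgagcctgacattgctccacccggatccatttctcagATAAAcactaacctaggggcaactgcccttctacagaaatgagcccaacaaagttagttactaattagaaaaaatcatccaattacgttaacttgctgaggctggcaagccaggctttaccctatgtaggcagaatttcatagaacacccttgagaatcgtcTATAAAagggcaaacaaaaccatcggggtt
Krt71, chr15:101743098-101743347, minus strand: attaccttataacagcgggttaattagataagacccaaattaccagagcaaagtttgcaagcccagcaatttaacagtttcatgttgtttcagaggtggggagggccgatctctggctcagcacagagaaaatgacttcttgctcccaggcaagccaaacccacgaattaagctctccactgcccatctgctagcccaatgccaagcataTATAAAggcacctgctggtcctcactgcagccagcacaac
Krt73, chr15:101802361-101802610, minus strand: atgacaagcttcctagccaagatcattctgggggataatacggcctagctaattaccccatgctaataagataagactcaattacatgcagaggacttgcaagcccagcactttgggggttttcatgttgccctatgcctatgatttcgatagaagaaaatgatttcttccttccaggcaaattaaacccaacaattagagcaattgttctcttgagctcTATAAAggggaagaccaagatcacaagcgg
All 7 inner root sheath keratin promoters held TATAAA, against 6 of the 9 shaft keratin promoters and 12.4% of all. A TATAAA between 40 and 20 bases before the start on the same strand was in 5 of the 7, in 4 of the 9 and in 1.99% of all promoters. CTTTGA was in 1 of the 7. TTTAT was in all 7, and in 3 of the 7 outside a TATAAA, against 8 of the 9 shaft keratin promoters and 30.9% of all. The further HOXC13 core TTAAT was in 3 of the 9 shaft and 4 of the 7 inner sheath promoters against 24.9% of all. CTTTGT, the other LEF1/TCF core searched, was in 1 of the 9 and 1 of the 7 against 16.5% of all.

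The first comparison, IMQ+H2O against VAS+H2O, asks what imiquimod changed. Hair shaft and inner root sheath genes were lower in every IMQ+H2O library than in any VAS+H2O library, apart from Krt40, which had 0 counts in 1 control, and Krt75. With p-values adjusted by Benjamini-Hochberg, edgeR (quasi-likelihood) called 15 of 33 tested genes lower and none higher, where 0.348% of all 22430 tested genes were called lower and 0.646% higher. Called means an adjusted p of 0.05 or lower with a log2 fold change of at least 1 in size. The libraries did not overlap, lower under imiquimod, for 29 of the 33, against 16.5% of all tested genes, and 27 were lower at an unadjusted p under 0.05, against 10.8%. The median log2 fold change was −4.05, also with groups at 0 counts set at their bound, against −0.02 for all tested genes. The filter on low counts admits a gene through the group where it is high, so this count and median describe the tested genes only. Krt39, Krt40, Krt74 and Shh had too few counts to be tested.

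The count of 15 rested on every library of the comparison. It was 7, 3 and 4 without VAS+H2O replicates 1, 2 and 3, and 1 (Krt83), 0 and 0 without IMQ+H2O replicates 1, 2 and 3. The 3 genes were Krt31, Krt83 and Msx2, and the 4 genes Krt31, Krt32, Krt83 and S100a3. In the fits with 0 calls, 29 and 27 members were still lower at an unadjusted p under 0.05 in edgeR. DESeq2's Wald test called 23 lower, the 15 among them, where it called 1.66% of all genes lower.

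**Figure D1:**
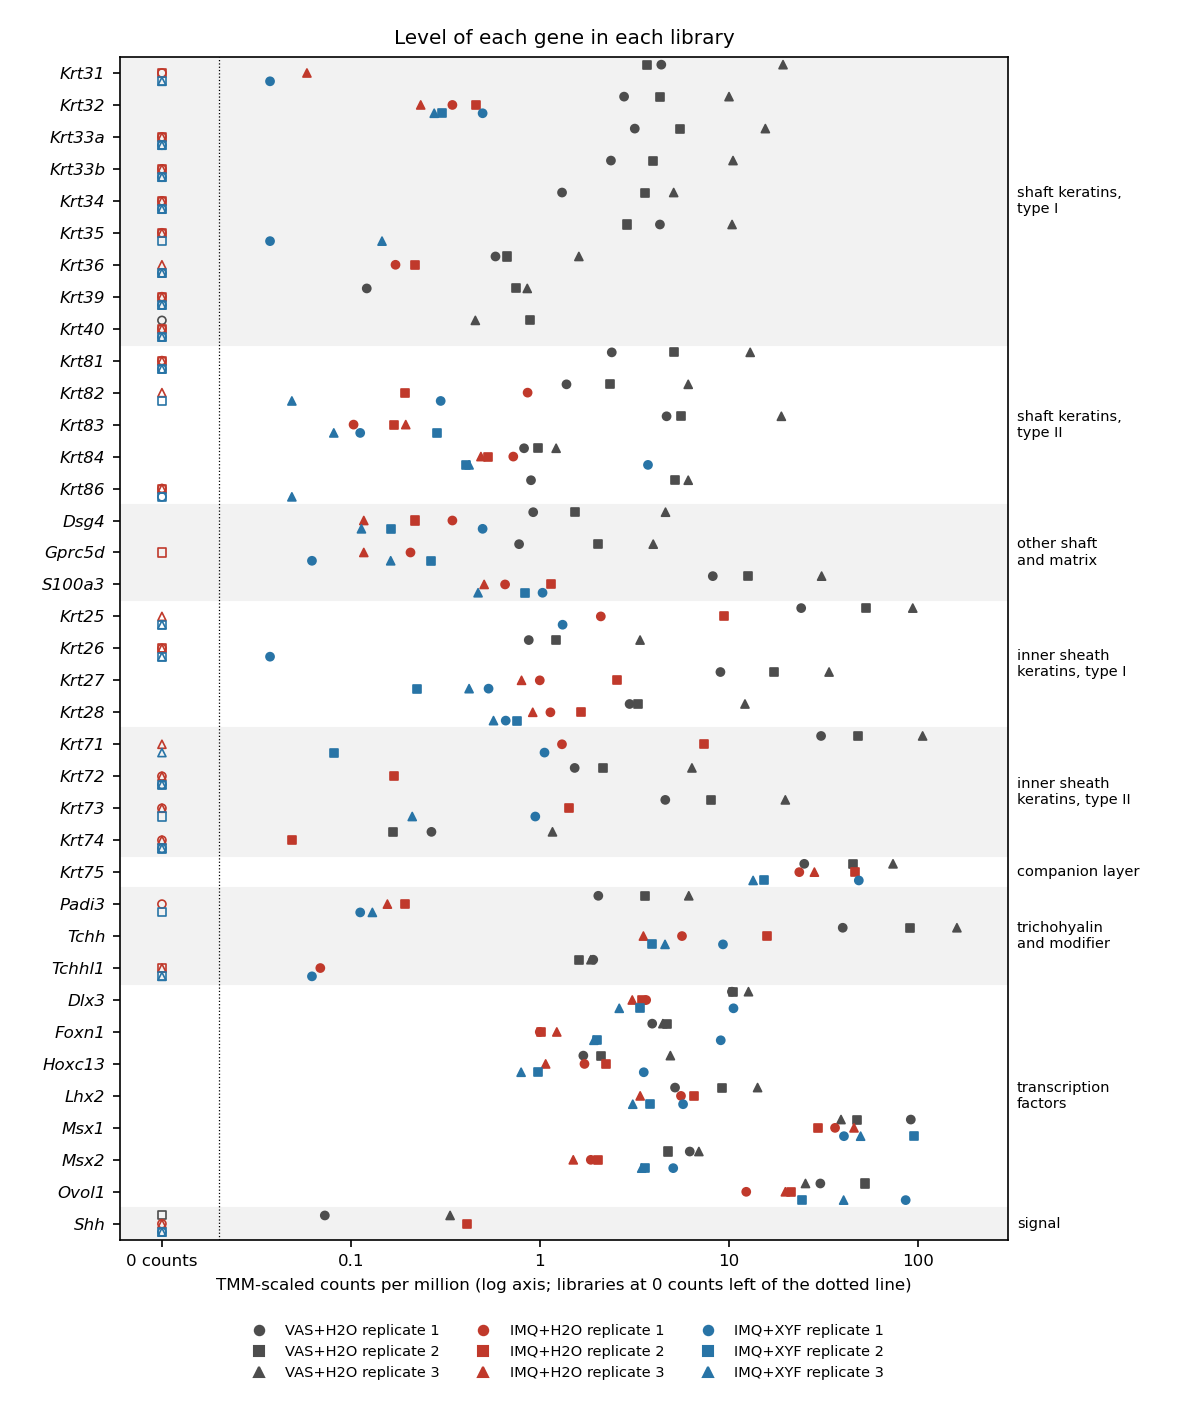
Each row is 1 gene and each point 1 library, with the TMM-scaled CPM on a log axis and libraries at 0 counts as open points left of the dotted line. The VAS+H2O points of the shaft and inner sheath keratins lie to the right, those of Krt75 and of the transcription factors lie closer together, and VAS+H2O replicate 3 is the highest of its group for 13 of 14 shaft keratins.

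The type I shaft keratins were read in all VAS+H2O libraries except for Krt40 in 1, and were at or near 0 under imiquimod. Of 7 tested, 6 were called lower, where 0.348% of all tested genes were called lower. Krt33a (ENSMUSG00000035592) had 3.18, 5.53 and 15.6 CPM in VAS+H2O replicates 1, 2 and 3, and 0 counts in each IMQ+H2O library. Krt33b (ENSMUSG00000057723) had 2.38, 3.95 and 10.5 CPM, again against 0 counts. Krt34 (ENSMUSG00000043485) had 1.31, 3.61 and 5.11 CPM against 0 counts. In each of these genes VAS+H2O replicate 3 was the highest, and no IMQ+H2O library reached the floor. Set against the floor of 3 counts per library, averaged over the group, Krt33a was at least 104-fold lower, Krt33b at least 71.8-fold and Krt34 at least 42.7-fold. The edgeR adjusted p was 0.0446, 0.0443 and 0.0423 in that order (n = 3 per group).

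Krt35 (ENSMUSG00000048013), among the first keratins that differentiating matrix cells make, had 4.32, 2.89 and 10.4 CPM in VAS+H2O and 0 counts in IMQ+H2O. It was at least 75-fold lower (edgeR adjusted p 0.0288). Krt31 (ENSMUSG00000048981), a keratin of the cortex, had 4.39, 3.70 and 19.4 CPM in VAS+H2O. Its IMQ+H2O libraries held 0, 0 and 3 counts. The ratio of the levels was 469, with an exact Poisson 95% interval from 160 to 2270, and the edgeR adjusted p was 0.0218. Krt32 (ENSMUSG00000046095), a keratin of the shaft cuticle, was the type I gene still counted in every library. It had 2.79, 4.34 and 10.0 CPM in VAS+H2O and 0.344, 0.461 and 0.234 CPM in IMQ+H2O. The log2 difference came to −4.05 ± 0.55 (SE, edgeR adjusted p 0.0213). No IMQ+H2O value came near the lowest control.

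Krt36 was not called. It had 0.582, 0.667 and 1.61 CPM in VAS+H2O and 0.172, 0.218 and 0 in IMQ+H2O (log2 fold change −2.94, SE 0.99, edgeR adjusted p 0.169). Krt39 had 5, 27 and 64 counts in the VAS+H2O libraries and Krt40 had 0, 32 and 34. Both had 0 counts in all other libraries and were not tested.

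The type II shaft keratins, the partners of type I, showed 3 genes called lower of 5 tested, against 0.348% of all tested genes. Krt81 (ENSMUSG00000067615) had 2.40, 5.14 and 12.97 CPM in VAS+H2O and 0 counts in IMQ+H2O, at least 87.4-fold lower (edgeR adjusted p 0.0488). Krt86 (ENSMUSG00000067614) had 0.898, 5.20 and 6.10 CPM in VAS+H2O and 0 counts in IMQ+H2O, at least 52.0-fold lower (edgeR adjusted p 0.0407). Krt83 (ENSMUSG00000067613) had 4.68, 5.59 and 19.0 CPM in VAS+H2O and 0.103, 0.170 and 0.195 in IMQ+H2O. It differed by −5.90 ± 0.73 on the log2 scale (SE, edgeR adjusted p 0.0166), and it was called in 7 of 9 fits with a library left out. In all 3 genes VAS+H2O replicate 3 was the highest. Of the 75-base windows of their transcripts, 30.7% for Krt81, 33.5% for Krt86 and 11.9% for Krt83 also occur in a neighbour among Krt81, Krt83, Krt86 and Krt87. The same share was 24.7% for Krt34, 19.1% for Krt31, 11.7% for Krt33a and 11% for Krt33b, shared mainly with each other. How the counting split such reads is not given in the sources used here, so the division of counts within these sets is uncertain.

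Krt82, a cuticle keratin, and Krt84 were not called. Krt82 had 1.38, 2.36 and 6.10 CPM in VAS+H2O and 0.861, 0.194 and 0 in IMQ+H2O (log2 fold change −3.34, SE 1.27, edgeR adjusted p 0.186). Krt84, a hair-type keratin best known from the tongue, had 0.825, 0.973 and 1.219 CPM in VAS+H2O and 0.723, 0.534 and 0.488 in IMQ+H2O. On the log2 scale the difference was −0.81 ± 0.81 (SE, edgeR adjusted p 0.604). Its groups did not overlap, at levels closer together than those of the other tested shaft keratins.

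Other shaft and matrix proteins were lower in the same libraries. S100a3 (ENSMUSG00000001021), a calcium-binding protein of the shaft cuticle, had 8.22, 12.6 and 31.0 CPM in VAS+H2O and 0.654, 1.14 and 0.507 in IMQ+H2O. It was called lower (log2 fold change −4.49, SE 0.59, edgeR adjusted p 0.0187). Gprc5d, an orphan receptor of hard keratinizing cells, had 0.776, 2.03 and 3.98 CPM against 0.207, 0 and 0.117. Dsg4, a desmosomal cadherin of the shaft, had 0.922, 1.53 and 4.62 CPM against 0.344, 0.218 and 0.117. Neither was called by edgeR, with log2 fold changes of −4.45 (SE 0.96, adjusted p 0.0633) and −3.44 (SE 0.80, adjusted p 0.0731), and DESeq2 called both lower. S100a3 overlaps S100a2 on its own strand and Gm23464 on the other.

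Keratin-associated proteins, which cross-link the shaft keratins, were low in the same way. Of 49 listed genes 46 had a row and 24 could be tested. edgeR called 9 of the 24 lower and none higher, where 0.348% of all tested genes were called lower. The median log2 fold change was −7.60, or −4.72 with groups at 0 counts set at their bound. The filter on low counts admits a gene through the group where it is high, so these values describe the tested genes only. Several of the keratin-associated proteins belong to families of close copies, whose single counts are therefore uncertain. Their summed level was 25.6, 82.9 and 109 CPM in VAS+H2O replicates 1, 2 and 3, and between 0.644 and 0.999 CPM in IMQ+H2O. Krtap11-1 had 166, 213 and 1303 counts in VAS+H2O and 0, 0 and 4 in IMQ+H2O (log2 fold change −8.06, SE 0.99, edgeR adjusted p 0.0162). Krtap8-1 had 104, 162 and 755 counts against 3, 0 and 4 (log2 fold change −6.57, SE 0.92, edgeR adjusted p 0.0240).

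**Figure D2:**
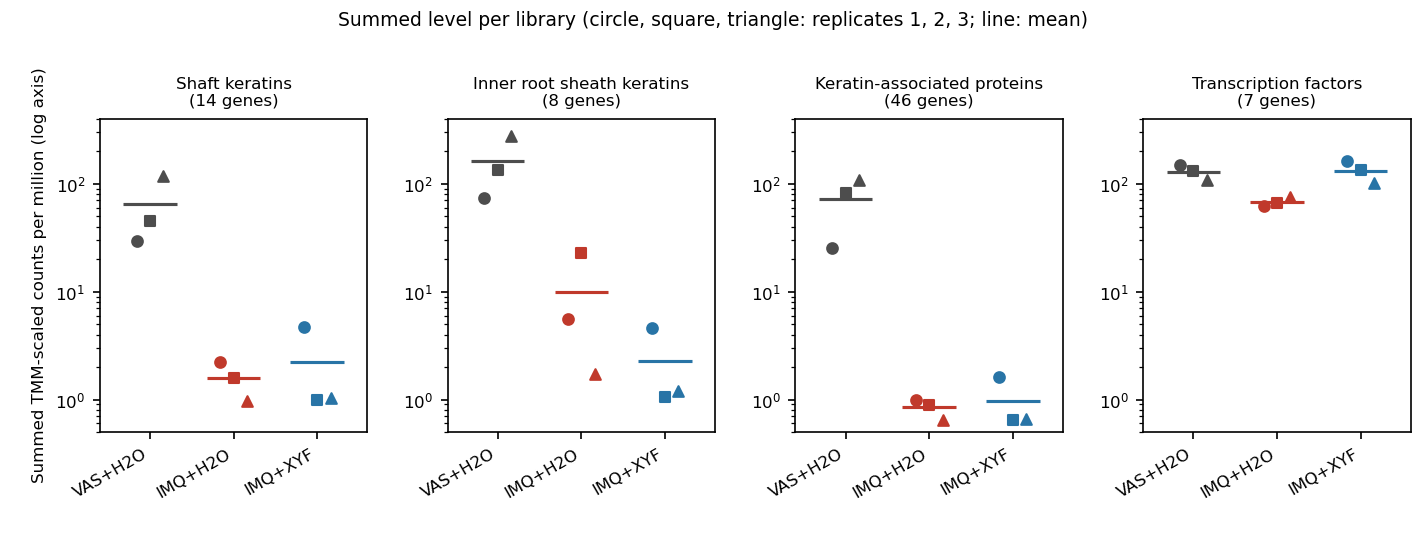
Points are libraries and lines are group means of the TMM-scaled CPM summed over the genes named above each panel, on log axes of the same range. Shaft keratins averaged 64.7 CPM in VAS+H2O against 1.59 in IMQ+H2O and 2.25 in IMQ+XYF, whereas the 7 transcription factors averaged 130, 68.4 and 132 CPM. That sum was mostly Msx1 (59.6, 37.4 and 62.0 CPM) and Ovol1 (36.25, 17.8 and 50.4 CPM), so it does not describe the other factors.

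Inner root sheath keratins were lower in IMQ+H2O too, and more unevenly between its libraries. Their summed level was 74.2, 134 and 277 CPM in VAS+H2O replicates 1, 2 and 3, and 5.55, 22.7 and 1.72 in IMQ+H2O. Of 7 tested genes, 2 were called lower, where 0.348% of all tested genes were called lower. Krt27 (ENSMUSG00000017588) had 9.02, 17.3 and 33.9 CPM in VAS+H2O and 0.999, 2.57 and 0.800 in IMQ+H2O (log2 fold change −3.78, SE 0.62, edgeR adjusted p 0.0314). Krt26 (ENSMUSG00000075570) had 0.873, 1.223 and 3.39 CPM in VAS+H2O and 0 counts in IMQ+H2O, at least 23.4-fold lower (edgeR adjusted p 0.0399).

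The most abundant inner sheath keratins, the type I Krt25 and the type II Krt71, were not called. Krt25 had 24.1, 53.4 and 94.0 CPM in VAS+H2O and 2.10, 9.39 and 0 in IMQ+H2O (log2 fold change −3.90, SE 1.56, edgeR adjusted p 0.203). Krt71 had 30.8, 48.2 and 106 CPM in VAS+H2O and 1.31, 7.40 and 0 in IMQ+H2O (log2 fold change −4.41, SE 1.47, edgeR adjusted p 0.147). The groups did not overlap for either gene. IMQ+H2O replicate 2 held 387 counts of Krt25 and 305 of Krt71, while replicate 3 held 0 of both in a deeper library. Replicate 2 was the highest IMQ+H2O library for 7 of 7 inner root sheath keratins with any count there, and for the shaft keratins it was the highest for 2 of 6.

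The other inner sheath keratins followed the same order of libraries. Krt28 had 2.98, 3.31 and 12.2 CPM in VAS+H2O and 1.14, 1.65 and 0.917 in IMQ+H2O, the smallest difference of the 7 (log2 fold change −2.32, SE 0.55, edgeR adjusted p 0.0745). Krt72, of the sheath cuticle, had 1.53, 2.17 and 6.38 CPM against 7 counts in IMQ+H2O replicate 2 alone (log2 fold change −5.81, SE 1.16, adjusted p 0.0677 in edgeR). Krt73, also of the cuticle, had 4.61, 8.03 and 19.9 CPM against 59 counts in IMQ+H2O replicate 2 alone (log2 fold change −4.48, SE 1.56, adjusted p 0.160 in edgeR). Krt74, annotated in mouse as a transcribed unitary pseudogene, had 11, 6 and 87 counts in VAS+H2O and 2 in IMQ+H2O replicate 2, and was not tested. VAS+H2O replicate 3 was the highest control for 8 of 8 inner root sheath keratins.

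Trichohyalin, the granule protein of the inner root sheath, and the enzyme that modifies it were lower. Tchh had 40.1, 91.0 and 161 CPM in VAS+H2O and 5.65, 15.9 and 3.53 in IMQ+H2O. At −3.54 ± 0.70 on the log2 scale (SE), its edgeR adjusted p of 0.0515 was just over the limit. Padi3 (ENSMUSG00000025328), which converts arginine of trichohyalin to citrulline, had 2.04, 3.61 and 6.14 CPM in VAS+H2O and 0, 0.194 and 0.156 in IMQ+H2O. It was called lower (log2 fold change −4.94, SE 0.89, edgeR adjusted p 0.0408). Tchhl1 (ENSMUSG00000027908), a relative of trichohyalin, was the most even of these genes in the control, with 1.92, 1.61 and 1.86 CPM. Its IMQ+H2O libraries held 2, 0 and 0 counts. The ratio of the levels was 78.3, with an exact Poisson 95% interval from 21.7 to 646, and the edgeR adjusted p was 0.0314.

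Krt75, the keratin of the companion layer between the inner and the outer root sheath, overlapped between the groups. It had 25.1, 45.5 and 73.9 CPM in VAS+H2O and 23.6, 46.5 and 28.4 in IMQ+H2O. The log2 difference came to −0.55 ± 0.55 (SE, edgeR adjusted p 0.602). At a mean of 10.05 CPM per kilobase of exon it stood next to Msx1, at 12.1, at the top of the members in IMQ+H2O.

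Of the 7 transcription factors 1 was called lower, 3 had an unadjusted p under 0.05 and 3 overlapped between the groups. Over all tested genes 0.348% were called lower and 10.8% were lower at that unadjusted p. The other 4 factors were lower without overlap, against 16.5% of all tested genes. Msx2 (ENSMUSG00000021469), a homeobox factor of the matrix, had 6.21, 4.78 and 6.94 CPM in VAS+H2O and 1.86, 2.04 and 1.502 in IMQ+H2O. It was called lower (log2 fold change −1.73, SE 0.24, edgeR adjusted p 0.0230). Its libraries were tight in both groups. Dlx3, a homeobox factor of matrix and inner sheath, had 10.4, 10.5 and 12.7 CPM against 3.65, 3.47 and 3.08 (log2 fold change −1.72, SE 0.47, adjusted p 0.0988 in edgeR). Foxn1, the factor whose loss makes nude mice, had 3.93, 4.70 and 4.48 CPM against 0.999, 1.02 and 1.23 (log2 fold change −2.01, SE 0.58, adjusted p 0.111 in edgeR). Neither overlapped between the groups. DESeq2 called both lower, and so did edgeR without IMQ+XYF replicate 1, whose spread enters the same fit.

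Hoxc13, the homeobox factor of the hair shaft, was not lower beyond its spread. It had 1.70, 2.11 and 4.90 CPM in VAS+H2O and 1.72, 2.23 and 1.07 in IMQ+H2O (log2 fold change −0.81, SE 0.64, edgeR adjusted p 0.498). Ovol1, a zinc finger factor of epidermis and hair, had 30.5, 52.8 and 25.4 CPM against 12.4, 21.3 and 19.9 (log2 fold change −1.02, SE 0.46, edgeR adjusted p 0.249). Msx1 and Lhx2, homeobox factors of follicle and mesenchyme, overlapped between the groups, at log2 fold changes of −0.67 (SE 0.39) and −0.88 (SE 0.40), with edgeR adjusted p of 0.357 and 0.250. Shh, the signal of the matrix, had 3, 0 and 25 counts in VAS+H2O and 17 in IMQ+H2O replicate 2 alone. Of the windows of Ovol1 18.2% and of Shh 21.1% lie on genes of the other strand, and Krt32, Krt75, Tchh and Lhx2 overlap such genes too. Whether the counting told the strands apart is not given in the sources used here.

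**Figure D3:**
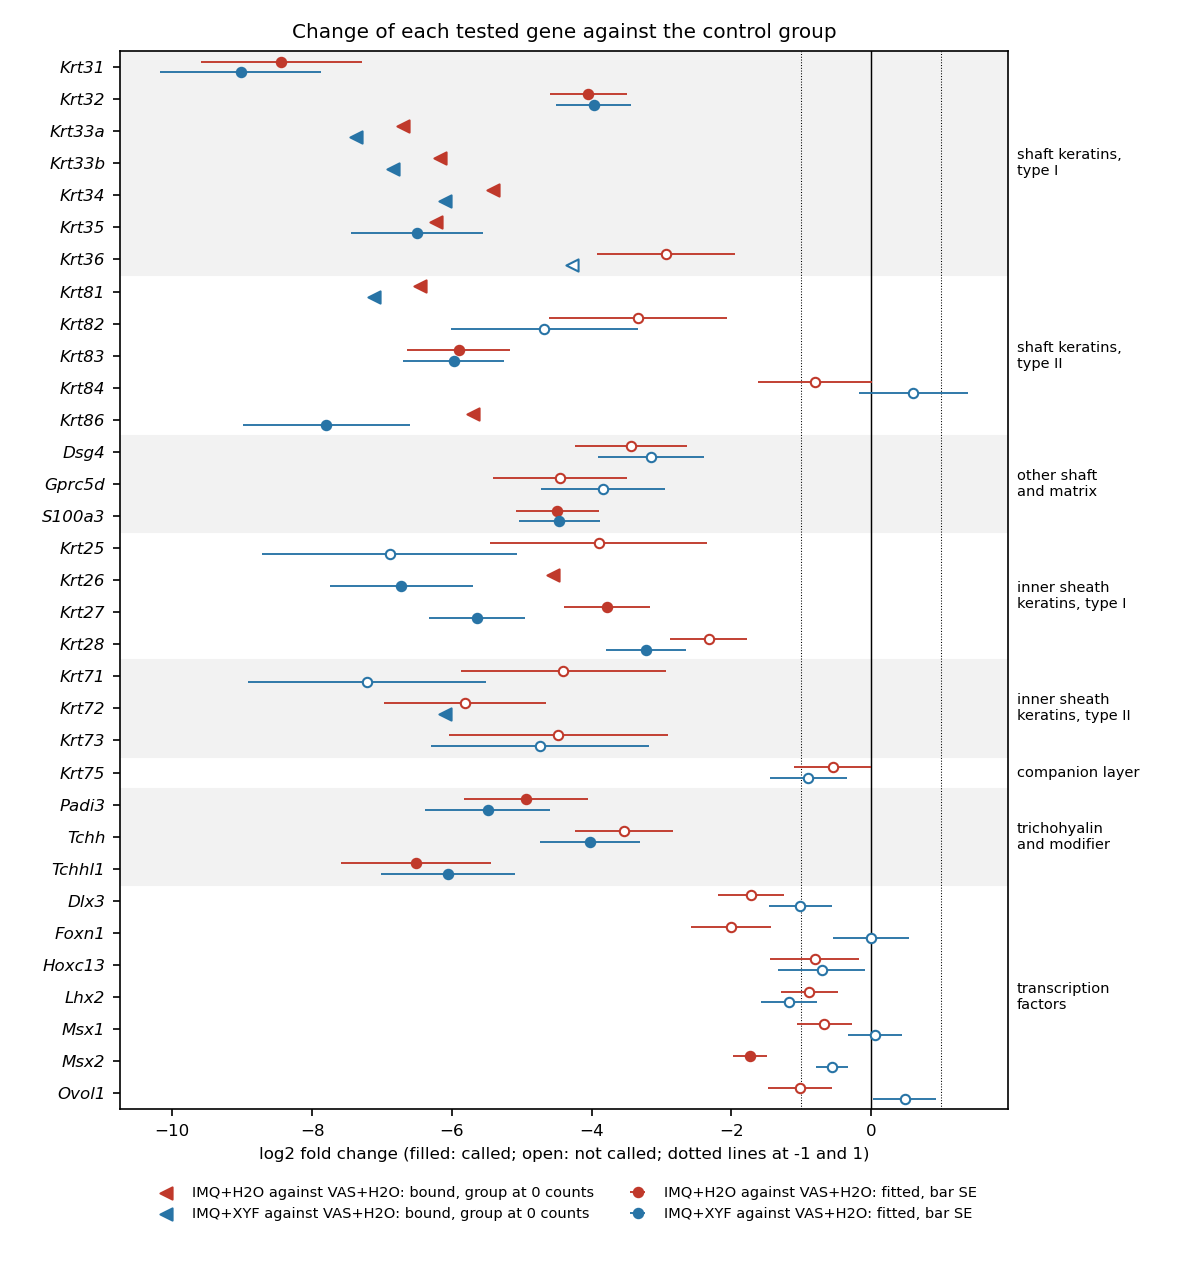
Points are log2 fold changes against VAS+H2O for each tested gene, in IMQ+H2O and IMQ+XYF, with bars of 1 SE, filled where called, and triangles mark lower bounds where the group was at 0 counts. Both treated groups share the VAS+H2O libraries, keratins lie left of −2 except Krt75 and Krt84, and the transcription factors lie between −2.01 and 0.48.

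The second comparison, IMQ+XYF against IMQ+H2O, asks what XYF changed on top of imiquimod. edgeR called none of the 33 tested genes, where it called 0.00892% of all tested genes in either direction. Of the 33, 7 had 3 counts or fewer in every library of both groups and passed the filter through VAS+H2O alone. XYF could not be judged for these 7, which left 26 above the floor. At an unadjusted p under 0.05, 3 members were higher and 2, Krt27 and Krt36, lower, where the shares of all tested genes were 6.35% and 5.39%. DESeq2 called 2 higher, Foxn1 and Msx2, where it called 0.808% of all genes higher. Of the shaft keratins, Krt33a, Krt33b, Krt34, Krt39, Krt40 and Krt81 had 0 counts in all 3 IMQ+XYF libraries as in IMQ+H2O. Krt36 had 5, 9 and 0 counts in IMQ+H2O and 0 in each IMQ+XYF library, at least 2.66-fold lower (edgeR adjusted p 0.378). Krt32 had 40, 15 and 17 counts in IMQ+XYF, Krt82 had 24, 0 and 3, and Krt84 had 300, 20 and 26. Krt35 had 3, 0 and 9 counts in IMQ+XYF against 0 in IMQ+H2O, and Krt86 had 0, 0 and 3.

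This comparison shares the IMQ+H2O libraries with the first one. The regulators Foxn1, Msx2 and Ovol1 had the lowest unadjusted p among members with a higher level. They were also the 3 members whose groups did not overlap in that direction, of 33 tested and 26 above the floor. Over all tested genes that share was a similar 9.22%. Foxn1 had 9.06, 2.01 and 1.93 CPM in IMQ+XYF replicates 1, 2 and 3 against 0.999, 1.02 and 1.23 in IMQ+H2O. It differed by 2.001 ± 0.58 on the log2 scale (SE, edgeR adjusted p 0.364, DESeq2 adjusted p 0.0293). Msx2 had 5.08, 3.62 and 3.46 CPM against 1.86, 2.04 and 1.502 (log2 fold change 1.17, SE 0.24, edgeR adjusted p 0.358, DESeq2 adjusted p 0.00311). Ovol1 had 86.2, 24.4 and 40.5 CPM against 12.4, 21.3 and 19.9 (log2 fold change 1.496, SE 0.47, edgeR adjusted p 0.364, DESeq2 adjusted p 0.0502). Replicate 1 was the highest of its group for all of them.

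IMQ+XYF replicate 1 was the highest of its group for 6 of 7 regulators with counts, 5 of 6 inner root sheath keratins and 4 of 7 shaft keratins. In some of these replicates 2 and 3 were within or below the range of IMQ+H2O, as in Krt84, Dlx3, Hoxc13 and Krt75. Krt84 had 3.73, 0.407 and 0.422 CPM in IMQ+XYF against 0.723, 0.534 and 0.488 in IMQ+H2O. Dlx3 had 10.6, 3.38 and 2.63 CPM against 3.65, 3.47 and 3.08. Hoxc13 had 3.55, 0.976 and 0.796 CPM against 1.72, 2.23 and 1.07. Without this library the log2 fold change of Krt84 by XYF turned from 1.41 to −0.47, that of Dlx3 from 0.71 to −0.18 and that of Hoxc13 from 0.10 to −0.91. Krt75 had 48.7, 15.3 and 13.4 CPM in IMQ+XYF against 23.6 to 46.5 in IMQ+H2O (log2 fold change −0.34, SE 0.55, edgeR adjusted p 0.827).

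The epidermis genes moved in the same libraries. Their sum was 26360 CPM in IMQ+XYF replicate 1 against 6760 and 8215 in replicates 2 and 3 and 3639 to 5076 in IMQ+H2O, and 15 of 15 were fitted higher by XYF, none called, 13 at an unadjusted p under 0.05. DESeq2 called 4 of them. All 13 tested cartilage genes were fitted higher, none called by edgeR, 11 at an unadjusted p under 0.05, and DESeq2 called 8 of them. All 10 skeletal muscle genes were fitted lower, none called by edgeR, 8 at an unadjusted p under 0.05, and DESeq2 called 1. Of all tested genes, 6.35% were higher and 5.39% lower by XYF at that unadjusted p, and DESeq2 called 0.808% of all genes higher. The part of these tissues in the values of Foxn1, Msx2 and Ovol1 was not tested. Without replicate 1, Foxn1 stayed higher by XYF at a log2 fold change of 0.86 and Ovol1 at 0.86, and Msx2 at 0.98.

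**Figure D4:**
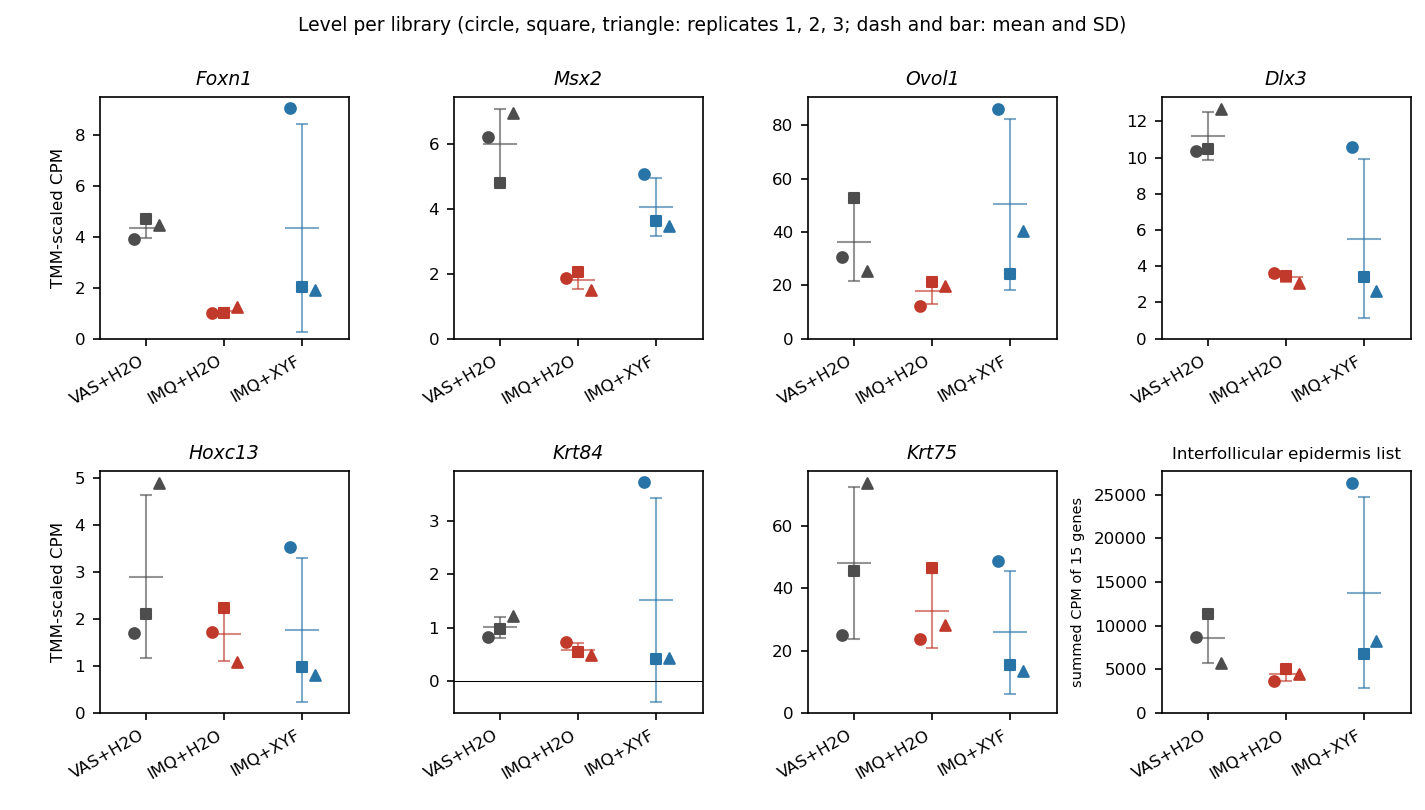
Panels plot the TMM-scaled CPM of 7 genes, and in the last panel the summed CPM of 15 interfollicular epidermis genes, with 1 point per library and the mean and SD of each group. IMQ+XYF replicate 1 (circle) is the highest of its group in every panel, with Krt84 at 3.73 against 0.407 and 0.422 CPM and the epidermis genes at 26360 against 6760 and 8215 CPM.

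Inner root sheath keratins were fitted lower by XYF, except Krt26 with 3 counts against 0, and none was called in edgeR or DESeq2. These falls leaned on IMQ+H2O replicate 2, the highest of its group for every such keratin with counts there. Without it no member was lower by XYF at an unadjusted p under 0.05 in edgeR, and Krt73 turned to a log2 fold change of 7.43. Krt27 and Krt28 stayed fitted lower in each fit with a library left out. Krt27 had 0.535, 0.224 and 0.422 CPM in IMQ+XYF, below the 0.800 to 2.57 CPM of IMQ+H2O (log2 fold change −1.86, SE 0.62, edgeR adjusted p 0.375). Krt28 had 0.660, 0.753 and 0.568 CPM against 0.917 to 1.65 (log2 fold change −0.90, SE 0.55, edgeR adjusted p 0.534). Of the 33 tested genes, 26 of them above the floor, these were the 2 whose groups did not overlap in that direction. The share of all tested genes was 8.74%. Krt25 had 106, 0 and 0 counts in IMQ+XYF and Krt71 had 85, 4 and 0, so both overlapped with IMQ+H2O.

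The third comparison, IMQ+XYF against VAS+H2O, asks what still differed from the control under XYF. It shares the VAS+H2O libraries with the first comparison, so its calls are no independent evidence. edgeR called 17 of 33 tested genes lower and none higher, where 0.508% of all tested genes were called lower. The groups did not overlap for 24 of the 33, against 10.3% of all tested genes, and 26 were lower at an unadjusted p under 0.05, against 8.76%. The median log2 fold change was −4.74, or −4.68 with groups at 0 counts set at their bound. As in the first comparison, the filter makes this count and median describe the tested genes only. The called genes comprised 9 of 12 tested shaft keratins, 4 of 7 inner root sheath keratins, S100a3 and all of Tchh, Tchhl1 and Padi3, and no transcription factor. DESeq2 called 23, where it called 1.45% of all genes lower. The count fell to 0 without VAS+H2O replicate 2, to 0 without IMQ+XYF replicate 3 and to 1, Dlx3, without IMQ+XYF replicate 1, with 28, 27 and 34 members lower at an unadjusted p under 0.05 in edgeR. It was 10 without VAS+H2O replicate 1, 5 without replicate 3 (Krt27, Krt31, Krt32, Krt83 and S100a3), and 11 and 7 without IMQ+H2O replicates 1 and 2. A fit of these 2 groups alone called 1, Krt27.

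Among the shaft genes of this comparison, Krt33a, Krt33b, Krt34 and Krt81 had 0 counts in IMQ+XYF, which puts them at least 165-fold, 115-fold, 68.2-fold and 139-fold lower (edgeR adjusted p 0.0394, 0.0386, 0.0358 and 0.0411). Krt31 had 3, 0 and 0 counts, a ratio of 735 with an exact Poisson 95% interval from 251 to 3560 (edgeR adjusted p 0.0173). Krt86 had 3 counts, all in replicate 3, a ratio of 250 with an interval from 85.6 to 1210 of the same kind (edgeR adjusted p 0.0383). Krt35 was called lower as well (log2 fold change −6.50, SE 0.95, edgeR adjusted p 0.0337). Krt83 had 0.112, 0.285 and 0.0812 CPM (log2 fold change −5.97, SE 0.72, edgeR adjusted p 0.0163). Krt32 had 0.498, 0.305 and 0.276 CPM (log2 fold change −3.97, SE 0.54, edgeR adjusted p 0.0201). S100a3 had 1.03, 0.834 and 0.471 CPM (log2 fold change −4.46, SE 0.58, edgeR adjusted p 0.0175). None of these libraries reached the lowest control value of its gene. Krt36, with 0 counts in IMQ+XYF, was at least 19.4-fold lower and missed the limit at an edgeR adjusted p of 0.0502.

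Among the inner sheath genes, Krt27 had a log2 fold change of −5.64 with an SE of 0.68 (edgeR adjusted p 0.0163) and Krt28 of −3.23 with an SE of 0.57 (edgeR adjusted p 0.0364). Krt26 had 3 counts, all in IMQ+XYF replicate 1, a ratio of 147 with an exact Poisson 95% interval from 50.3 to 713 (edgeR adjusted p 0.0382). Krt72 had 0 counts and was at least 68.5-fold lower (edgeR adjusted p 0.0400). Tchh had 9.31, 3.91 and 4.60 CPM in IMQ+XYF against 40.1 to 161 in VAS+H2O (log2 fold change −4.03, SE 0.72, edgeR adjusted p 0.0370). Padi3 had 9, 0 and 8 counts and Tchhl1 had 5, 0 and 0 (edgeR adjusted p 0.0309 and 0.0288). Krt25 and Krt71 were not called, at log2 fold changes of −6.89 (SE 1.82, adjusted p 0.0913 in edgeR) and −7.21 (SE 1.70, adjusted p 0.0698 in edgeR).

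The transcription factors overlapped between IMQ+XYF and VAS+H2O in all 7 cases, and none was called. At an unadjusted p under 0.05 in edgeR 2 were lower, Msx2 and Lhx2, against 8.76% of all tested genes. The log2 fold change was −0.56 for Msx2 (SE 0.23, edgeR adjusted p 0.238), −1.01 for Dlx3 (SE 0.46, edgeR adjusted p 0.282) and −0.71 for Hoxc13 (SE 0.63, edgeR adjusted p 0.617). It was 0.48 for Ovol1 (SE 0.46, edgeR adjusted p 0.649) and −1.18 for Lhx2 (SE 0.40, edgeR adjusted p 0.164). Foxn1 and Msx1 were at −0.005 (0.036 in DESeq2) and 0.06 (edgeR adjusted p 0.998 and 0.962), with SEs of 0.54 and 0.39. Without IMQ+XYF replicate 1, Foxn1 was at −1.15 and Dlx3 at −1.90, and Dlx3 was then called lower.

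Levels of different members can be set side by side only per kilobase of exon. On that scale the mean in VAS+H2O was 28.7 ± 17.6 CPM per kilobase for Krt25 and 28.2 ± 18.0 for Krt71 (SD, n = 3), the type I and type II keratins of the inner sheath. Msx1 followed at 19.3 ± 9.11, Tchh at 16.7 ± 10.4, Krt75 at 14.8 ± 7.51, Krt27 at 12.96 ± 8.17 and Ovol1 at 10.4 ± 4.17. The highest shaft keratins were Krt31 at 5.78 ± 5.59 and Krt83 at 5.29 ± 4.34. No neighbours among the first 7 of this order differed by more than their SD. In IMQ+XYF the order was led by Msx1 at 20.0 ± 9.52 and Ovol1 at 14.4 ± 9.20, followed by Krt75 at 7.91 ± 6.08, while Krt25 was at 0.221 and Krt71 at 0.174.

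Other hair growth regulators, among them Wnt, Bmp, Fgf and hedgehog pathway genes, were tested as a wider list. By imiquimod 1 of 46 tested was called lower and none higher, where 0.348% of all tested genes were called lower. At an unadjusted p under 0.05, 18 were lower, against 10.8% of all tested genes, and 1 higher. DESeq2 called 4 lower, against 1.66% of all genes, and the median log2 fold change was −0.51. The called gene was the forkhead factor Foxq1, with 420, 419 and 755 counts in VAS+H2O and 96, 197 and 204 in IMQ+H2O (log2 fold change −1.40, SE 0.21, edgeR adjusted p 0.0247). By XYF none was called. At an unadjusted p under 0.05, 11 were higher and 3 lower, against 6.35% and 5.39% of all tested genes. DESeq2 called 3 higher, against 0.808% of all genes. In IMQ+XYF against VAS+H2O, the hedgehog receptor Ptch1 was called lower alone, at a log2 fold change of −1.05 with an SE of 0.20 (edgeR adjusted p 0.0413).

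A list of 30 tested further shaft and inner root sheath genes, many of which epidermis also expresses, had 1 called lower by imiquimod and a median log2 fold change of −0.46. At an unadjusted p under 0.05, 8 were lower, against 10.8% of all tested genes, and 1 higher. DESeq2 called 6 lower, against 1.66% of all genes, and 1 higher. The gene called lower by edgeR was Vsig8, with 101, 144 and 772 counts in VAS+H2O and 5, 10 and 10 in IMQ+H2O (log2 fold change −4.76, SE 0.86, edgeR adjusted p 0.0418). In IMQ+XYF against VAS+H2O, Vsig8 and Fam26d were called lower at log2 fold changes of −5.37 and −5.61 (SE 0.88 and 0.95, edgeR adjusted p 0.0315 and 0.0333). Gsdma3, a gasdermin, was called higher at 1.87 (SE 0.34, edgeR adjusted p 0.0407). By XYF none of the list was called. At an unadjusted p under 0.05, 13 were higher and 1 lower, against 6.35% and 5.39% of all tested genes. DESeq2 called 4 higher, against 0.808% of all genes. Of the 24 tested keratin-associated proteins, none was called by XYF in either test. Here 17 of the 24 had 3 counts or fewer in every library of both imiquimod groups, so XYF could not be judged for them. In IMQ+XYF against VAS+H2O 17 were called lower, where 0.508% of all tested genes were called lower.

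Outer root sheath, bulge and dermal papilla genes were measured to cover the rest of the follicle. Of 19 outer root sheath and bulge genes none was called by imiquimod, 5 were lower at an unadjusted p under 0.05, DESeq2 called 1 lower, and the median log2 fold change was −0.32. Of 24 dermal papilla genes none was called by imiquimod, 7 were lower and 4 higher at an unadjusted p under 0.05, DESeq2 called 2 in each direction, and the median was −0.04. The share of all tested genes lower by imiquimod at that unadjusted p was 10.8%, and DESeq2 called 1.66% of all genes lower. The matching shares for the higher direction are not given here. In IMQ+XYF against VAS+H2O, Alpl of the latter list was called higher at a log2 fold change of 2.45 (SE 0.46, edgeR adjusted p 0.0411). By XYF none of either list was called in edgeR, and DESeq2 called 2 outer root sheath and bulge genes higher, against 0.808% of all genes. At an unadjusted p under 0.05, 6 dermal papilla genes were lower and 2 higher by XYF. For outer root sheath and bulge genes 2 were lower and 3 higher, and over all tested genes 5.39% were lower and 6.35% higher.

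Among markers of other tissues, cartilage genes had 3 of 13 tested called lower by imiquimod in edgeR and none higher, 12 lower at an unadjusted p under 0.05, 12 called lower by DESeq2, and a median log2 fold change of −1.91. The called genes were Col2a1 at −2.70 (edgeR adjusted p 0.0247), Col9a3 at −2.05 and Matn3 at −2.48. Interfollicular epidermis genes had no call among 15, 3 lower at an unadjusted p under 0.05, 2 called lower by DESeq2, and a median of −0.77. Fibroblast, melanocyte, sebaceous gland and skeletal muscle genes had no call by imiquimod in edgeR or DESeq2, at medians of −0.47, −0.34, −0.12 and 0.24. At an unadjusted p under 0.05, 4 of 10 fibroblast and 2 of 11 sebaceous gland genes were lower. For each of these lists, the share of all tested genes lower by imiquimod at that limit was 10.8%. The share called lower was 0.348% in edgeR and 1.66% of all genes in DESeq2. Of 15 proliferation genes none was called by imiquimod in either test, and 2 were higher at an unadjusted p under 0.05. In IMQ+XYF against VAS+H2O, Mcm2, Mcm5 and Rrm2 were called higher by edgeR, and 12 of the 15 were higher at an unadjusted p under 0.05. The matching shares of all tested genes are not given here, so these counts describe the list only. Melanocyte and skeletal muscle genes had 0 at an unadjusted p under 0.05 by imiquimod in either direction. The part of these tissues in the falls of the hair genes was not tested. Sebaceous gland genes, which belong to the same pilosebaceous unit, had a summed level of 2000 to 2830 CPM in VAS+H2O, 2030 to 2330 in IMQ+H2O and 1500 to 2420 in IMQ+XYF.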

How the data were processed

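RNA of ear dermis was read by RNA sequencing in 9 libraries, grouped by their labels. The deposited counts are whole numbers per gene, not normalized, made by the authors. The submitters' processing notes name FastQC, STAR 2.5, Cuffnorm, DESeq 1.22.1 and GRCm38, with no counter. The study's methods name StringTie for transcript assembly. Whether the counts are direct tallies of reads is not given in the sources used here, and the floor, bounds and Poisson intervals take them as such. The labels call the libraries strand-specific, the kit named in the methods does not mark strand, and the strand setting of the counting is not given in the sources used here.

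The counts were tested in R 4.3.3 with edgeR 4.0.16 (limma 3.58.1), by the quasi-likelihood test after filterByExpr (minimum count 10) and TMM scaling, with all 9 libraries in 1 fit and 3 comparisons. The filter left 22430 of 52550 genes. P-values were adjusted by Benjamini-Hochberg over all of them, and called means an adjusted p of 0.05 or lower and a log2 fold change of at least 1 in size. SEs were taken from the F statistic, as the size of the log2 fold change over the root of F. The floor was 3 counts per library, and bounds and Poisson intervals (95%) cover counting error only. DESeq2 1.42.0, other size factors, no filter, a replicate block, fits of 2 groups, an adjusted p of 0.01 and leaving out each library were the alternatives, and CPM without TMM factors for summed levels. Scripts were tested on simulated data.

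The 38 genes and all lists were chosen with earlier results of these data known. Genes called in a comparison, or the highest of their class, are given by library. Genes outside the 38 are named from the lists where called or among the 3 highest. The lists hold other hair growth regulators, other shaft and inner root sheath genes, keratin-associated proteins, outer root sheath and bulge, dermal papilla, interfollicular epidermis, dermal fibroblast, cartilage, melanocyte, sebaceous gland, skeletal muscle and proliferation genes. Exon lengths and positions came from GENCODE annotation of GRCm38 by Ensembl ID, and shared sequence from windows of 75 bases of its transcripts.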

Additional observations from a re-analysis of the deposited data

How the results depend on the processing

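Members called by imiquimod numbered 15, against 23 in DESeq2 (all 15 among them), 0 at an adjusted p of 0.01 and 0 to 18 with each library left out. Members called by XYF numbered 0, against 2 in DESeq2 and 0 with each library left out. Members called in IMQ+XYF against VAS+H2O numbered 17, against 1 in a fit of these 2 groups alone, 0 at an adjusted p of 0.01 and 0 to 18 with each library left out. The cause was not tested.

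The replicate numbers were not treated as pairs, and same-numbered libraries deviated together with correlations from −0.183 to 0.125. With 3 libraries per group, such correlations cannot exclude a shared batch. With the replicate block 4 members were called by imiquimod, 0 by XYF and 3 in IMQ+XYF against VAS+H2O. Under the block the log2 fold change by XYF turned to 0.13 for Krt73, 0.10 for Krt83 and −0.069 for Hoxc13, and that of Krt84 in IMQ+XYF against VAS+H2O to −0.058.

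Foxn1 in IMQ+XYF against VAS+H2O turned from −0.005 to 0.036 in DESeq2, 0.032 with the size factors of DESeq2, 0.023 without the filter and 0.018 in the fit of 2 groups. With a library left out, the following log2 fold changes by XYF took both signs, from the lowest to the highest: Krt32 −0.24 to 0.36, Krt73 −2.08 to 7.43, Krt82 −3.47 to 0.47, Krt83 −0.68 to 0.23, Krt84 −0.47 to 1.88, Tchh −0.97 to 0.39, Tchhl1 −0.22 to 3.56, Hoxc13 −0.91 to 0.45, Dlx3 −0.18 to 1.05, Dsg4 −0.66 to 0.68 and S100a3 −0.24 to 0.45. In IMQ+XYF against VAS+H2O the same held for Krt84 from −1.28 to 1.10, Foxn1 −1.15 to 0.38, Msx1 −0.36 to 0.51 and Ovol1 −0.16 to 0.86. No tested member turned its direction by imiquimod under these alternatives. Summed levels without TMM factors moved by less than 1 SD. Where a group had 0 counts, depth limits the fold to a lower bound.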
